A study of Sorghum bicolor with 16 samples.

Results

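The waxy sorghum mutant line 15M2-1184 (wxe) was compared with its parent BTx623 (WT) in endosperm at 11 days post anthesis (DPA). The comparison used the 4 libraries of that age, 2 per genotype, out of the 16 libraries of the series, and covered 15808 of 34129 genes, those whose mean at that age exceeded 1 FPKM in WT or in wxe. FPKM is a fragment count scaled to transcript length and to the mapped reads of the library. The series profiled both genotypes at 6, 11, 16 and 21 DPA to follow how the waxy allele bears on the developing grain, and the other 12 libraries served here to estimate the spread between replicates and to set the 11 DPA effect beside that of the other ages.

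BTx623 is the sorghum reference genome line. The mutant came from ethyl methane sulfonate (EMS) mutagenesis of BTx623 and carries a stop-gained allele in the last exon of SbGBSSI on chromosome 10. Only homozygous mutant plants were used. It is 1 line and holds other EMS mutations, so each effect described here is one seen in the line, and the allele and the other mutations cannot be told apart. The genotypes grew in neighbouring field rows under bagged panicles, so an effect of the line and one of its row cannot be told apart either. A replicate was a pool of mid-panicle seed from 3 panicles matched for flowering day. Replicates are therefore separate pools of plants in 1 field, and the p-values measure the spread between such pools. The endosperm was cut out of frozen seeds by hand. In pooled tissue, fewer cells of a type and less RNA per cell cannot be told apart.

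The cereal endosperm stores starch and protein for the seedling. Starch is made of branched amylopectin, which the starch synthases and branching enzymes build from ADP-glucose, and of amylose, which granule-bound starch synthase I (GBSSI) makes. Sucrose delivered by the mother plant is the carbon source, and kafirins, the prolamins of sorghum, are the main storage proteins.

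The 11 DPA libraries summed to 948355 and 1001504 FPKM in WT and to 779091 and 873138 in wxe. In WT the 10 most abundant genes took 38% and 37.8% of that sum, and in wxe 30.4% and 33.7%. No read counts were available, but the steps between low values gave the relative worth of 1 read, which was 1.07, 0.858 and 1.05 times that of WT replicate 1 in WT replicate 2, wxe replicate 1 and wxe replicate 2. Across genes on the log2(FPKM + 1) scale, Pearson's r was 0.991 between the WT libraries, 0.986 between the wxe libraries and 0.944 to 0.959 between genotypes. The median absolute log2 difference was 0.13 between the WT libraries, 0.19 between the wxe libraries and 0.29 between the genotype means. Of the starchy endosperm markers, SbGBSSI and SbSBEIIb summed to 3261 and 3280 FPKM in WT and 2594 and 2370 in wxe. SbGBSSI, the gene with the stop-gained allele, set the direction of that sum, while SbSBEIIb had higher values in wxe. The study reports a homozygous nonsynonymous mutation in SbSBEIIb in this line, so both summed genes are mutated in wxe. Kafirins, also markers of starchy endosperm, were left out of the sum, and the 9 described below had lower means in wxe. The markers of aleurone and embryo (globulin-1 and globulin-2) summed to 49.96 and 47.8 in WT and 14.1 and 21.8 in wxe. None of the 4 summed markers was at 0 in any library. The globulin sum moved with genotype, and its part in the results was not tested.

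Calls of a difference fell on 2834 of 15808 genes (17.9%), of which 914 were higher in wxe (5.78%) and 1920 lower (12.1%). The thresholds were those of the study, an adjusted p below 0.05 (limma, Benjamini-Hochberg adjustment over all genes tested) together with a log2 fold change of 0.58 or more in size. Fold changes here are differences of log2(FPKM + 1), a scale that makes the change of low genes look smaller. With 2 libraries on each side the exact two-sided permutation test has 0.333 as its smallest p, and the calls therefore rest on the spread that limma pooled across genes and groups. For a gene near 0 at other ages, the libraries of those ages differ little and can make its standard error smaller. With 11 DPA fitted alone 3042 genes were called. The lower calls reached further than the higher calls. Of the genes called lower, 830 (43.2%) differed at least 2-fold and their median log2 fold change was -0.94, against 160 (17.5%) and a median of 0.73 for the genes called higher. The median over all genes tested was 0.01. Under quantile normalization the calls numbered 1218 higher and 1712 lower, which moved the share of higher calls from 32.3% to 41.6%.

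**Figure D1:**
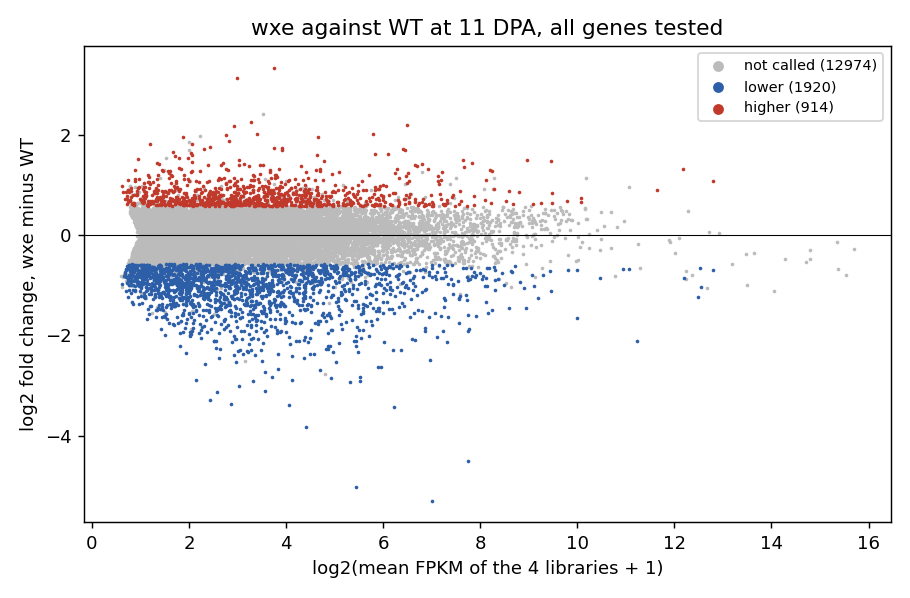
Log2 fold change (wxe minus WT, vertical axis, log2(FPKM + 1) scale) against log2 of the mean FPKM of the 4 libraries plus 1 for the 15808 genes tested at 11 DPA. Points are genes, red for the 914 called higher, blue for the 1920 called lower and grey for the rest; the falls extend to -5.29 and the rises to 3.34.

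Calls lay at every level of expression. Among genes with a mean up to 5 FPKM over the 4 libraries 12.9% were called lower and 4.75% higher, and among the 782 genes from 100 to 1000 FPKM 12.9% and 7.54%. The 65 genes above 1000 FPKM included 11 called lower and 5 called higher, and their median log2 fold change was -0.27. By chromosome, the share called lower was 6.83% on chromosome 5 and 6.93% on chromosome 8 and ran from 11.2% to 14.3% on the other 8 chromosomes. The share called higher ran from 4.91% on chromosome 3 to 7.58% on chromosome 5.

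SbGBSSI (Sobic.010G022600), the targeted gene, had 2657 and 2617 FPKM in the WT libraries and 1678 and 1634 in the wxe libraries. Both wxe libraries lay below both WT libraries, and the gene was among the 65 with a mean above 1000 FPKM. The log2 fold change was -0.67 (standard error 0.16, limma adjusted p = 0.00691). The call was lost under quantile normalization, at a log2 fold change of -0.35, and stood under the other 13 of 14 alternatives (limma adjusted p from 0.00109 to 0.102 over the 14).

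The other starch genes named in the study's text had higher values in wxe at 11 DPA, and none of them passed both thresholds. Of the 8 genes on this list 1 was called lower (SbGBSSI) and 0 higher in limma, against 12.1% and 5.78% of all genes tested. At an unadjusted limma p below 0.05, 5 were higher. The share of all genes at that threshold was not computed, so nothing is read from this count. The remaining 7 all had higher values in both wxe libraries than in both WT libraries, as 33.6% of all genes tested did. Libraries of the genotypes did not overlap, in either direction, in 67.9% of the genes tested. The median of the 8 was 0.32. At an adjusted p below 0.05 alone, 3 of the 8 passed, against 32% of all genes tested.

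SbSSIIIa (Sobic.007G068200), a starch synthase that extends amylopectin chains, had 44.3 and 42.9 FPKM in WT and 80.1 and 68.1 in wxe. Its log2 fold change of 0.75 (standard error 0.30, limma adjusted p = 0.0712) was the largest on the list and did not pass the test. It was called under 3 of 14 alternatives (limma adjusted p from 0.00237 to 0.262), among them the fit of 11 DPA alone.

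SbAGPLS1 (Sobic.003G230500), a subunit of the ADP-glucose pyrophosphorylase that makes the substrate of the starch synthases, had 593 and 691 FPKM in WT and 1060.3 and 845 in wxe. Its log2 fold change was 0.56 (limma adjusted p = 0.0170), just under the fold threshold, and it was called without WT replicate 2 (0.67) and without wxe replicate 2 (0.73). Sobic.002G160400, which acts at the step from glucose 1-phosphate to ADP-glucose, stood at 121 and 134 FPKM against 169 and 165, a log2 fold change of 0.39 (limma adjusted p = 0.0213) under the fold threshold. The branching enzyme SbSBEIIb (Sobic.004G163700) had 604 and 663 FPKM in WT and 916 and 737 in wxe, with a log2 fold change of 0.38 (limma adjusted p = 0.0627). By the study's account SbSBEIIb itself carries a homozygous nonsynonymous mutation in this line. Lower on the scale of expression, SbSSIIC (Sobic.001G239500) was at 10.9 and 11.99 FPKM against 14.2 and 13.8, SbAGPLS2 (Sobic.009G245000) at 2.54 and 2.82 against 3.49 and 3.38, and SbSSIIIb (Sobic.006G221000) at 0.798 and 0.66 against 1.17 and 0.947.

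For 5 of these 8 genes the sign of the effect was opposite at 6 DPA, as it was for 62.9% of all genes tested. For 6 of the 8 the difference between the 11 and the 6 DPA effect passed limma's test of that difference at an adjusted p below 0.05, against 41.1% of all genes tested. For SbAGPLS1 the effect was -0.95 at 6 DPA, and the difference was 1.51 (limma adjusted p = 2.73e-04). For SbSSIIIa it was -0.93 at 6 DPA, and the difference was 1.68 (limma adjusted p = 0.00731).

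**Figure D2:**
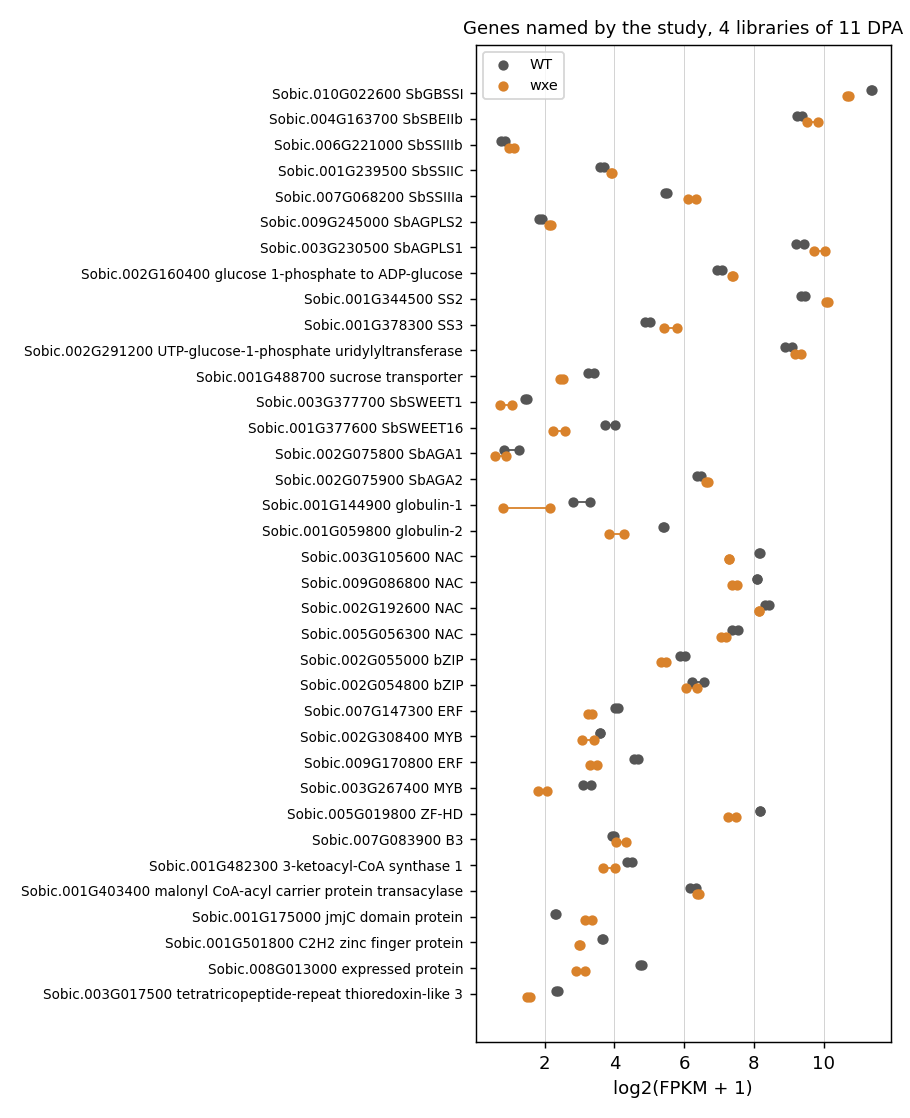
log2(FPKM + 1) of the 36 genes named in the study's text and tested at 11 DPA (horizontal axis), with 1 point per library, grey for WT and orange for wxe, the 2 libraries of a genotype joined by a line. The globulins, the sucrose transporter, SbSWEET16 and most transcription factors lie lower in wxe, while 7 of the 8 starch genes and both sucrose synthases lie higher.

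Genes of sugar supply moved in both directions. Of the 9 on the list, 8 passed the FPKM filter, invertase 3 (Sobic.004G004800) did not, and 2 were called higher and 2 lower, against 5.78% and 12.1% of all genes tested. Both higher genes are sucrose synthases, which split sucrose into fructose and UDP-glucose, and both lower genes are sugar transporters. The median log2 fold change of the 8 was -0.04.

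SS2 (Sobic.001G344500) had 654 and 706 FPKM in WT and 1063 and 1117 in wxe, a log2 fold change of 0.68 (standard error 0.16, limma adjusted p = 0.00717). Without WT replicate 1 it narrowly missed the threshold at 0.63 (limma adjusted p = 0.0518; 0.00469 to 0.0518 over 14 alternatives). SS3 (Sobic.001G378300) had 28.5 and 31.3 FPKM in WT and 41.9 and 54.6 in wxe, a log2 fold change of 0.66 (standard error 0.13, limma adjusted p = 0.00269), which was 0.47 and under the fold threshold without wxe replicate 2. At 6 DPA both sucrose synthases were called lower in wxe, at -0.74 and -0.64, and the differences from 11 DPA of 1.42 and 1.30 passed limma's test (adjusted p = 4.81e-04 and 2.27e-04).

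SbSWEET16 (Sobic.001G377600), of the SWEET family of sugar transporters, had 12.3 and 15.2 FPKM in WT and 3.69 and 5.01 in wxe. All WT values lay above all wxe values, and the log2 fold change was -1.47 (standard error 0.25, limma adjusted p = 9.86e-04), called under all 14 alternatives. At 6 DPA the same gene was higher in wxe, with 16.5 and 13.2 FPKM in WT against 41.9 and 76.2, and the difference between the ages was -3.33 (limma adjusted p = 2.54e-05). At 16 and 21 DPA it was at 0.429 FPKM or lower in every library.

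The sucrose transporter Sobic.001G488700 had 8.39 and 9.67 FPKM in WT and 4.47 and 4.73 in wxe, a log2 fold change of -0.84 (standard error 0.17, limma adjusted p = 0.00352) with no overlap of the libraries. It was the lone called sugar gene on the list whose 6 DPA effect had the same sign (-0.44), and the difference between those ages did not pass (limma adjusted p = 0.211). SbSWEET1 (Sobic.003G377700) stood at 1.70 and 1.82 FPKM against 0.63 and 1.09 and was not called (limma adjusted p = 0.171). The UTP-glucose-1-phosphate uridylyltransferase Sobic.002G291200, at 476 and 549 FPKM against 575 and 645, and the raffinose metabolism genes SbAGA1 (Sobic.002G075800) and SbAGA2 (Sobic.002G075900), at 0.777 and 1.38 against 0.476 and 0.848 and at 81.6 and 88.4 against 97.4 and 102, were not called either.

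Transcripts labelled as kafirins held most of the highest FPKM values. On the deposited scale their means were lower in wxe, without passing the test. The 10 genes with the highest mean over the 4 libraries, a choice made after their values were seen, include 9 that the study labels as kafirins; Sobic.009G021400 has no such label. All 10 had lower means in wxe. In 7 the wxe libraries lay wholly below those of WT, as in 34.3% of all genes tested. In limma 0 of the 10 were called, where 12.1% of all genes were called lower. At an unadjusted limma p below 0.05, 2 were lower, and the share of all genes at that threshold was not computed. The median log2 fold change was -0.48. Kafirin genes include near-identical copies between which reads may have been shared, so the value of each is uncertain.

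Sobic.005G185400 differed most on the log2 scale, with 24285 and 21912 FPKM in WT and 10025 and 11470 in wxe. The log2 fold change was -1.11 (standard error 0.42, limma adjusted p = 0.0604), and it was called under 4 of 14 alternatives (limma adjusted p from 0.00841 to 0.646). Sobic.005G184400, the most abundant in WT and the one with the largest difference of the 10 in FPKM, had 61993 and 58020 FPKM in WT and 30613 and 39188 in wxe (-0.79, limma adjusted p = 0.275). Sobic.002G211700, the most abundant in wxe, had no overlap either, with 58903 and 57020 against 43601 and 52973 (-0.27, limma adjusted p = 0.143). The direction of 5 of the 10 depended on the scaling. Under quantile normalization Sobic.002G211700, Sobic.005G189000, Sobic.009G021400 and Sobic.005G188800 turned to between 0.10 and 0.22, and Sobic.009G001600 to 0.85, past both thresholds (limma adjusted p = 0.0118, and 0.0118 to 0.941 over its 14 alternatives).

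**Figure D3:**
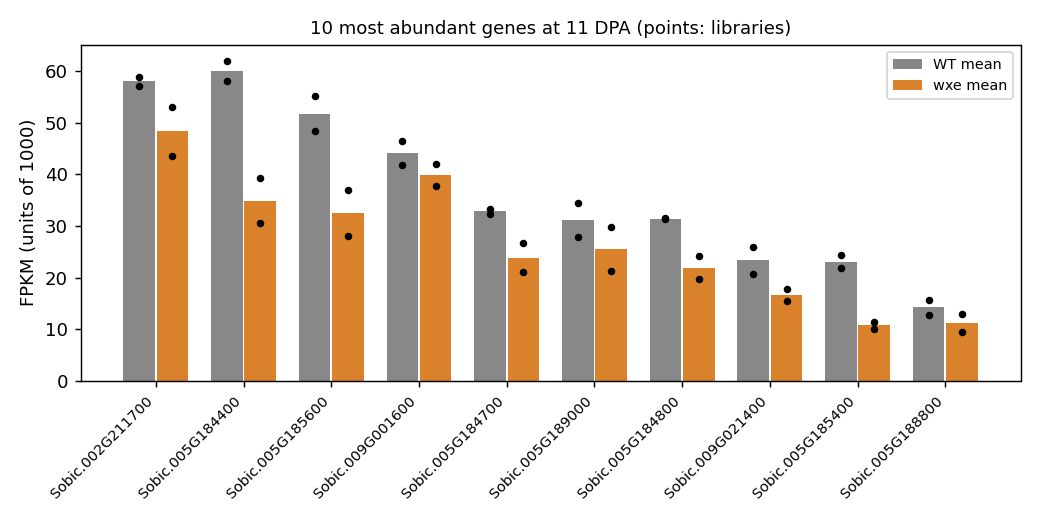
FPKM (axis in units of 1000) of the 10 most abundant genes at 11 DPA. Bars are the means of 2 libraries, grey for WT and orange for wxe, and points are the libraries. All 10 wxe means lie below the WT means, from 10747 against 23098 FPKM for Sobic.005G185400 to 39854 against 44097 for Sobic.009G001600, whose libraries overlap.

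Values of Sobic.002G211700, Sobic.005G184700 and Sobic.005G184800 were listed at 0 in each of the 4 libraries of 16 DPA and of 21 DPA, after WT means of 57961, 32820 and 31418 FPKM at 11 DPA. Among the 127 genes above 1000 FPKM in any group no other gene was listed at 0 in all libraries of an age. An exact 0 can be an estimate that failed, so no result at the later ages is read for these 3 genes. The zeros did enter the fit, as groups without spread, and the counts over all genes tested. With 11 DPA fitted alone the limma adjusted p of the 3 at 11 DPA was 0.701, 0.408 and 0.343. In the main fit it was 0.143, 0.199 and 0.103.

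The globulin storage proteins, known in cereals from aleurone and embryo, were the list with the lowest median, -1.46, and neither of the 2 was called. Globulin-2 (Sobic.001G059800) had 41.2 and 41.8 FPKM in WT and 13.4 and 18.4 in wxe (-1.35, limma adjusted p = 0.0517). It was called in 2 of 14 alternatives (limma adjusted p from 8.15e-04 to 0.224), and its libraries at the later ages spread widely, from 40.3 to 130 FPKM in WT at 16 DPA. Globulin-1 (Sobic.001G144900) had 8.77 and 5.96 FPKM in WT and 0.729 and 3.43 in wxe (-1.57, limma adjusted p = 0.125). At 6, 16 and 21 DPA both had higher means in wxe, none of them called (limma adjusted p from 0.142 to 0.767). Globulin-1 libraries of the genotypes overlapped at 16 and 21 DPA, while those of globulin-2 did not overlap at any of these ages. For both genes the 11 DPA effect lay below the mean of the other ages in limma's test of the difference (adjusted p = 0.00569 for globulin-2 and 0.0378 for globulin-1).

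Of the 12 transcription factors named in the study's text, 6 were called lower and 0 higher in limma, against 12.1% and 5.78% of all genes tested. At an unadjusted limma p below 0.05, 0 were higher, and the share of all genes at that threshold was not computed. Negative values stood for 11 of the 12, where 8015 of all 15808 genes tested had positive values, and the median of the 12 was -0.60. The study chose these genes from the same libraries, so the count is not independent evidence of a direction. The 6 fell into those already lower at 6 DPA and those higher at that age.

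Lower at both ages were the NAC genes Sobic.003G105600 and Sobic.009G086800 and the ERF gene Sobic.007G147300. Sobic.003G105600 had 288 and 281 FPKM in WT and 155 and 156 in wxe (-0.87, standard error 0.15, limma adjusted p = 0.00131). Sobic.009G086800 stood at 269.5 and 273 FPKM against 183 and 163 (-0.65, limma adjusted p = 8.72e-04), with a log2 fold change of -0.57, under the fold threshold, without wxe replicate 2 and under quantile normalization. Sobic.007G147300 had 16.3 and 15.2 FPKM in WT and 9.20 and 8.45 in wxe (-0.77, limma adjusted p = 0.0115); it lost the call with a pseudocount of 0.1, without WT replicate 1 (-0.73) and without wxe replicate 2 (-0.72), with limma adjusted p from 3.47e-04 to 0.131 over 14 alternatives. For none of the 3 did the WT and wxe libraries overlap.

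Called higher in wxe at 6 DPA and lower at 11 DPA were the ERF gene Sobic.009G170800, the MYB gene Sobic.003G267400 and the ZF-HD gene Sobic.005G019800. The ZF-HD gene had 290 and 287 FPKM in WT and 151 and 178 in wxe at 11 DPA (-0.81, standard error 0.11, limma adjusted p = 2.01e-04). At 6 DPA it had shown 7.24 and 7.44 FPKM in WT and 19.9 and 22.8 in wxe, and the difference of the effects was -2.23 (limma adjusted p = 1.75e-06). In WT it rose from 6 to 16 DPA, to 455 and 451 FPKM, and its 11 DPA level in wxe lay between the WT levels of 6 and 11 DPA.

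The MYB gene Sobic.003G267400 had 7.55 and 9.08 FPKM in WT and 2.47 and 3.22 in wxe (-1.28, limma adjusted p = 2.90e-04), after 8.40 and 7.503 against 22.9 and 31.6 at 6 DPA. The ERF gene Sobic.009G170800 had 24.8 and 22.5 FPKM in WT and 10.4 and 8.82 in wxe (-1.22, limma adjusted p = 0.00388). The differences from the 6 DPA effect were -2.92 and -2.16 (limma adjusted p = 7.31e-06 and 6.85e-04). All 3 genes were called under all 14 alternatives, with no overlap of the libraries. Of the remaining factors, NAC gene Sobic.002G192600, NAC gene Sobic.005G056300, bZIP genes Sobic.002G055000 and Sobic.002G054800 and MYB gene Sobic.002G308400 had values from -0.55 to -0.19 and the B3 gene Sobic.007G083900 0.23, none called.

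Neither of the fatty acid genes named in the text was called. The 3-ketoacyl-CoA synthase 1 gene Sobic.001G482300, from the enzymes that elongate fatty acids, had 19.4 and 21.6 FPKM in WT and 11.8 and 15.1 in wxe (-0.58, limma adjusted p = 0.165). The malonyl CoA-acyl carrier protein transacylase gene Sobic.001G403400 stood at 70.6 and 79.6 against 85.6 and 82.0 (0.16, limma adjusted p = 0.231).

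The mutant carries large-effect EMS mutations in 4 further genes that the study names, and all 4 were called at 11 DPA, 3 lower and 1 higher, against 12.1% and 5.78% of all genes tested. The study picked them from these libraries for lower expression in the mutant at every age, so the lower calls restate that choice. Sobic.008G013000, known from its annotation only as expressed, had 25.4 and 26.4 FPKM in WT and 7.89 and 6.38 in wxe, a log2 fold change of -1.73 (standard error 0.13, limma adjusted p = 1.04e-05). Sobic.001G501800 (C2H2 zinc finger) had 11.6 in both WT libraries and 7.03 and 6.98 in wxe (-0.65), and Sobic.003G017500 (tetratricopeptide-repeat thioredoxin-like 3) had 4.24 and 4.02 against 1.81 and 1.99 (-0.82). The jmjC domain gene Sobic.001G175000 went the other way, at 3.98 and 3.86 against 9.23 and 7.86 (0.95), which differs from the study's account of it. It was called higher at 6 DPA too (0.81), but its log2 fold change was -0.54 at 16 DPA (limma adjusted p = 0.0628) and -0.97 at 21 DPA, where it was called lower (limma adjusted p = 0.00115). The difference from the 6 DPA effect did not pass limma's test for any of the 4 (adjusted p from 0.0621 to 0.556).

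Few genes were called in the same direction at every age. The 4 called lower at 6, 11, 16 and 21 DPA were Sobic.008G013000, Sobic.003G017500, Sobic.010G262300 and Sobic.004G157300, and the 3 called higher were Sobic.003G033700, Sobic.003G033000 and Sobic.007G118600. Among them, Sobic.010G262300 had 9.32 and 10.2 FPKM in WT and 3.65 and 3.29 in wxe at 11 DPA (-1.26), and Sobic.007G118600 6.35 and 6.72 against 17.4 and 16.7 (1.26). No function is given for these 5 further genes because the IDs came without annotation.

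The largest rises among genes with at least 10 FPKM in 1 genotype began with Sobic.006G202500. It had 1.23 and 1.65 FPKM in WT and 22.7 and 24.6 in wxe, a log2 fold change of 3.34 (standard error 0.27, limma adjusted p = 1.47e-05). Sobic.001G318500 had 0.439 and 0.871 in WT and 14.6 and 12.1 in wxe (3.12, standard error 0.20, limma adjusted p = 3.37e-06). Both were also called higher at 6 DPA, where WT had 1.11 and 1.34 FPKM against 18.3 and 21.3 in wxe for the first and 0.159 and 0.0858 against 7.46 and 7.63 for the other, and neither was called at 16 DPA.

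Another of the 10, Sobic.001G243500, differed at the later ages instead. It had 1.95 and 1.43 FPKM in WT and 8.25 and 14.8 in wxe at 11 DPA (2.18, limma adjusted p = 1.68e-04) and was called higher again at 16 DPA (1.35 and 2.42 against 15.7 and 15.4) and 21 DPA, while at 6 DPA all 4 libraries lay below 1 FPKM.

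The other 7 large rises belonged to genes that fell in WT between 6 and 16 DPA. So did 57% of all genes called higher at 11 DPA and 26.1% of all genes tested. Sobic.005G152700 went in WT from 853 and 1447 FPKM at 6 DPA through 43.1 and 22.3 at 11 DPA to 0.888 and 1.23 at 16 DPA. The wxe course began with 1596 and 802 FPKM, passed 139 and 151 and ended with 3.64 and 1.52, so the genotypes stood apart at 11 DPA and overlapped at 6 DPA. Its log2 fold change at 11 DPA was 2.18 (standard error 0.40, limma adjusted p = 0.00164), or 1.72 without WT replicate 2 and 2.64 without WT replicate 1.

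Sobic.003G330800 followed the same course, with 345 and 541 FPKM in WT and 668 and 430 in wxe at 6 DPA, and 23.9 and 18.5 against 82.0 and 93.2 at 11 DPA (2.00, limma adjusted p = 1.78e-04). Sobic.005G150000 had 42.4 and 69.5 against 66.1 and 35.6 at 6 DPA and 2.56 and 2.16 against 14.8 and 15.2 at 11 DPA (2.25, limma adjusted p = 1.20e-04). Sobic.003G300701 (2.01), Sobic.005G213900 (1.95), Sobic.004G271300 (1.87) and Sobic.003G276500 (1.74) completed the 10. In each of the 10 the gap between genotypes was wider than the difference between the libraries of either genotype, which the choice of these genes required.

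**Figure D4:**
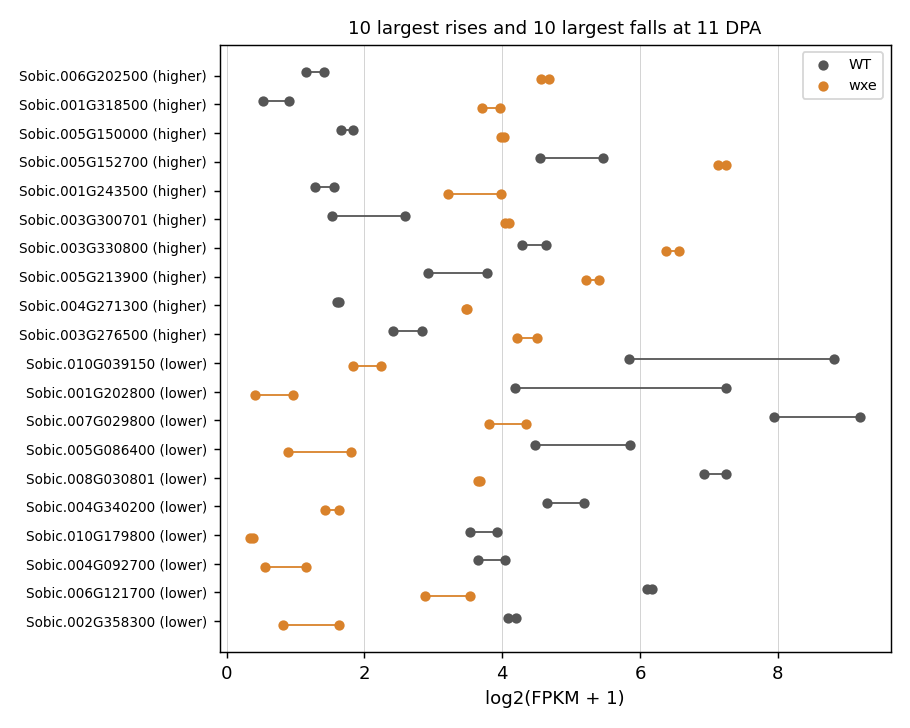
log2(FPKM + 1) of the 10 largest rises (upper rows) and the 10 largest falls (lower rows) at 11 DPA, with 1 point per library, grey for WT and orange for wxe, the 2 libraries of a genotype joined. The WT libraries of Sobic.010G039150 (56.5 and 449 FPKM) and Sobic.001G202800 (17.1 and 151 FPKM) lie farthest apart.

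The largest falls were larger than the rises. Sobic.010G039150 had 56.5 and 449 FPKM in WT and 2.57 and 3.73 in wxe, a log2 fold change of -5.29 (standard error 0.69, limma adjusted p = 2.08e-04), or -3.80 without WT replicate 2 and -6.77 without WT replicate 1. Sobic.001G202800 had 17.1 and 151 in WT and 0.337 and 0.959 in wxe (-5.02, standard error 0.94, limma adjusted p = 0.00186), or -3.49 without WT replicate 2. In both genes the size of the fall thus rested on 1 library, and the call did not.

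Sobic.007G029800 had 584 and 245 FPKM in WT and 19.4 and 13.0 in wxe at 11 DPA (-4.49, standard error 0.43, limma adjusted p = 3.86e-05). At 6 DPA it was near the floor in WT, at 0.199 and 0.215, and called higher in wxe, at 3.10 and 0.929. At 16 DPA the wxe libraries, at 1145 and 1464 FPKM, lay above those of WT, at 713 and 386, without a call (1.30, limma adjusted p = 0.164). In this gene, therefore, wxe led in value at 6 and 16 DPA and trailed at 11 DPA.

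Sobic.008G030801 had the same order of genotypes, with 2.29 and 1.57 FPKM in WT against 8.68 and 16.7 in wxe at 6 DPA, 150 and 120 against 11.9 and 11.5 at 11 DPA (-3.42, limma adjusted p = 8.64e-05), and 83.9 and 40.3 against 110 and 152 at 16 DPA. Sobic.006G121700 was listed at 0 in both WT libraries at 6 DPA, where wxe had 2.42 and 0.329 FPKM, and at 71.5 and 67.5 against 6.39 and 10.6 at 11 DPA (-2.93, limma adjusted p = 1.80e-04). At 21 DPA it was called higher in wxe, with 14.9 and 27.6 FPKM in WT and 45.3 and 57.4 in wxe.

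A pair of the falls had their highest wxe levels at 6 DPA and their highest WT levels at 11 DPA. Sobic.010G179800 had 0.872 and 0.739 FPKM in WT and 9.72 and 25.4 in wxe at 6 DPA, and 10.6 and 14.2 against 0.27 and 0.301 at 11 DPA (-3.37, limma adjusted p = 2.26e-05), with all libraries at 0.168 FPKM or lower at 16 DPA. Sobic.004G340200 had 14.6 and 18.4 against 39.6 and 38.6 at 6 DPA and 35.3 and 24.1 against 1.68 and 2.10 at 11 DPA (-3.39, standard error 0.17, limma adjusted p = 1.00e-06). The difference between the effects at 11 and 6 DPA was -6.59 and -4.59 for these genes (limma adjusted p = 1.62e-06 and 6.62e-07). At 16 and 21 DPA Sobic.004G340200 was at 0.261 FPKM or lower in every library, and those libraries share in its estimate of spread. With 11 DPA fitted alone its limma adjusted p at 11 DPA was 6.22e-05.

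Sobic.005G086400 (-3.81), Sobic.004G092700 (-3.00) and Sobic.002G358300 (-2.92) made up the 10. Of the 10 falls, 6 rose in WT between 6 and 16 DPA and 2 fell. The share that rose was 42.6% among all genes called lower at 11 DPA and 23% among all genes tested. At 6 DPA 6 of the 10 falls were called higher in wxe, and 3 of the 10 rises were. That share was 40.2% among all genes called lower at 11 DPA and 7.77% among those called higher. It was 11.6% among the genes tested at both ages.

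Among the called genes whose genotypes lay farther apart than their replicates, the largest differences in FPKM belonged to other genes. Sobic.001G274025 had 5146 and 4025 FPKM in WT and 10168 and 9005 in wxe, a log2 fold change of 1.07 (standard error 0.23, limma adjusted p = 0.00440). At 6 DPA it was far lower in wxe, with 579 and 856 FPKM in WT and 35.2 and 32.5 in wxe, and the difference of the effects was 5.41 (limma adjusted p = 1.32e-06). It was called lower again at 21 DPA, at 6131 and 4465 against 2399 and 1796.

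Sobic.003G326300 had 2475 and 2867 FPKM in WT and 6335 and 6880 in wxe (1.31, limma adjusted p = 9.54e-04). At 6 DPA it was called lower in wxe, at 3277 and 2026 against 4982 and 4857 (-0.93, limma adjusted p = 0.00642). Its WT level was lower at the later ages, down to 76.3 and 68.6 at 21 DPA, and the gene was called higher in wxe at 11, 16 and 21 DPA, ending at 853 and 930 FPKM. Sobic.004G205100 had 1941 and 2584 against 3999 and 4311 FPKM (0.89, limma adjusted p = 0.00133).

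The last of the 5 rises in amount were less firm. Sobic.008G082300 had 420 and 310 FPKM in WT and 1324 and 759 in wxe (1.47, limma adjusted p = 0.0264) and was called under 10 of 14 alternatives (0.00611 to 0.189), with log2 fold changes of 1.07 without wxe replicate 1, 1.26 without WT replicate 2 and 1.69 without WT replicate 1, none of them called. Sobic.004G354500 had 736 and 878 against 1215 and 1469 (0.73, limma adjusted p = 0.00807) and was not called without WT replicate 1 (0.60) or without wxe replicate 2 (0.59).

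Among the falls in amount, Sobic.007G075301 had 3486 and 4334 FPKM in WT and 787 and 1038 in wxe (-2.10, standard error 0.46, limma adjusted p = 0.00500). At 6 DPA it had 1.43 and 0.385 FPKM in WT and 60.3 and 31.0 in wxe, and the difference of the effects was -6.70 (limma adjusted p = 1.77e-05). It was called higher in wxe again at 21 DPA, at 420 and 1134 against 2391 and 2206.

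Sobic.001G488000 had 7805 and 8271 FPKM in WT and 3599 and 4289 in wxe (-1.03, limma adjusted p = 0.00442), after 2314 and 2224 against 4338 and 6250 at 6 DPA, where it was called higher. Sobic.009G021300 had 7823 and 8253 against 3346 and 3465 (-1.24, limma adjusted p = 0.00327) and was lower in wxe at 6 DPA too, at 497 and 831 against 34.6 and 20.6. By 16 DPA the genotypes met, at 4230 and 4284 in WT and 4215 and 3814 in wxe.

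Sobic.002G028100, with 8972 and 8542 FPKM against 5436 and 5359 (-0.70, limma adjusted p = 0.0151), and Sobic.001G518700, at 5823 and 6216 against 3570 and 3059 (-0.86, limma adjusted p = 0.0267), were each called under 8 of 14 alternatives. Sobic.002G028100 lost the call without WT replicate 1 (-0.66) and without either wxe replicate (-0.71 and -0.69), and Sobic.001G518700 without any 1 of the 4 libraries (-0.98 to -0.75). Limma adjusted p over the alternatives ran from 0.00342 to 0.0908 and from 0.0108 to 0.137.

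The 11 DPA effect differed from that at other ages in many genes, in limma's test of the difference at an adjusted p below 0.05. It differed from the 6 DPA effect in 6500 genes (41.1%), lying above it in 19.6% and below it in 21.5% of all genes tested. Against 16 DPA the difference passed in 2714 genes (17.2%, of which 6.46% above and 10.7% below), and against 21 DPA in 2602 (16.5%, 6.24% above and 10.2% below). Against the mean effect of the other 3 ages it passed in 33.6%, with 2307 genes (14.6%) above and 3011 (19%) below. All of these comparisons use the same 4 libraries of 11 DPA.

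Genes lower in wxe at 11 DPA were often higher in wxe at 6 DPA. Of the 1920 genes called lower at 11 DPA, 771 (40.2%) were called higher at 6 DPA and 73 called lower, against 11.6% and 5.47% of the 15072 genes tested at both ages. The 771 made up 44% of all 1754 genes called higher at 6 DPA. The median 6 DPA effect of the 1920 was 0.44, and 77% had a positive value at that age, against 47.1% of all genes tested. The difference of the effects passed limma's test for all 771, whose calls at both ages had selected them.

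For the 914 genes called higher at 11 DPA the 6 DPA calls were fewer, 89 lower (9.74%) and 71 higher (7.77%), with a median effect of -0.15. At 16 DPA, where 0.674% of genes tested at both ages were called higher and 0.271% lower, 23 of the higher set were called higher. The lower set had 22 called lower and 24 higher there. At 21 DPA 244 of the lower set were again called lower, 12.7% of the set and 63.9% of the 382 genes called lower at that age, against 2.68% of the 14241 genes tested at both. The lower set also had 69 called higher at 21 DPA. Of the higher set, 57 were called higher and 7 lower at 21 DPA, against 3.6% and 2.68%.

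**Figure D5:**
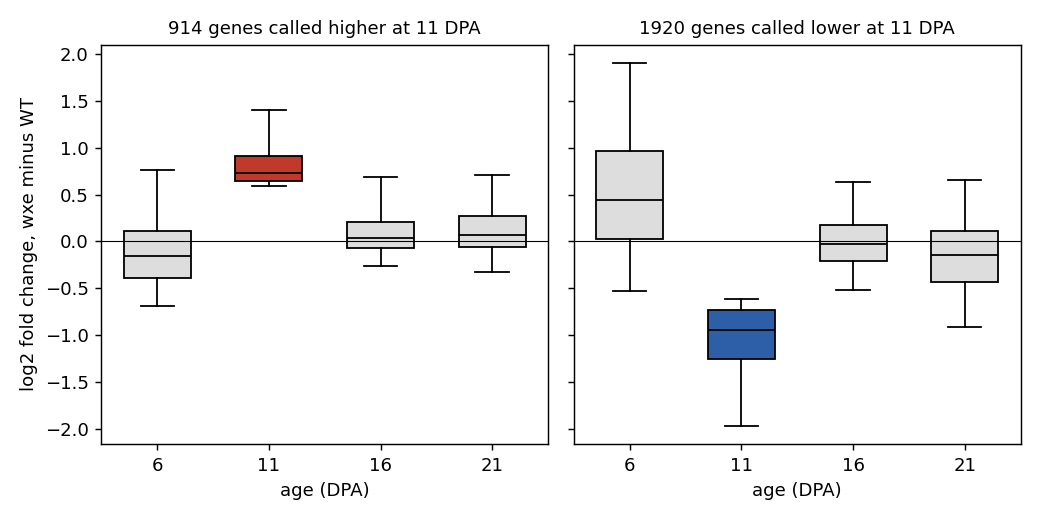
Log2 fold change (wxe minus WT, vertical axis) at 6, 11, 16 and 21 DPA (horizontal axis) of the 914 genes called higher (left) and the 1920 called lower (right) at 11 DPA. Boxes span the quartiles with the median as a line, and whiskers the 5th to 95th percentile over genes; the 11 DPA boxes (coloured) are fixed by the choice, while the medians of the lower set are 0.44, -0.02 and -0.14 at 6, 16 and 21 DPA.

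Both sets were also followed in WT alone, between ages whose libraries do not enter the 11 DPA fold changes. Those libraries did share in the estimate of spread behind the calls. Of the genes called higher in wxe at 11 DPA, 521 (57%) fell in WT from 6 to 16 DPA and 56 (6.13%) rose, against 26.1% and 23% of all genes tested. Of the genes called lower, 817 (42.6%) rose and 482 (25.1%) fell. From 16 to 21 DPA the higher set fell in 191 genes (20.9%) and rose in 25 (2.74%), and the lower set rose in 525 (27.3%) and fell in 166 (8.65%), against 9.62% rising and 9.43% falling among all genes tested. The shares are counts over genes, which are not independent replicates.

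Calls at 11 DPA alone numbered 695 of the 914 higher and 890 of the 1920 lower, genes not called, or not tested, at any other age. Lack of a call elsewhere does not show that a change was confined to 11 DPA. For 1405 of these genes the difference from the mean effect of the other ages passed limma's test, against 33.6% of all genes tested. The 11 DPA call that selected them favours such a difference, so nothing is read from that count. Sobic.006G007001 was among the genes chosen for the largest difference of the 11 DPA effect from the mean effect of the other ages, with 1.35 and 2.07 FPKM against 8.88 and 10.7 (2.00, limma adjusted p = 1.55e-05), 1.88 above the mean effect of the other ages. Sobic.008G070100, at 59.5 and 47.4 against 141 and 115 (1.25, limma adjusted p = 0.0296), another gene chosen so, lay 1.98 above it. It was called at 11 DPA under 8 of 14 alternatives (limma adjusted p from 2.25e-04 to 0.200) and lost the call without any 1 of the 4 libraries (1.08 to 1.41).

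Neighbouring genes were called alike in several places, in the order of their IDs among the genes tested. The longest such run held 7 genes on chromosome 10, from Sobic.010G245100 to Sobic.010G246600, all lower. Within it Sobic.010G246400 had 277 and 305 FPKM in WT and 128 and 125 in wxe (-1.20, limma adjusted p = 1.81e-04), and Sobic.010G246600 11.2 and 10.8 against 1.57 and 1.96 (-2.12, limma adjusted p = 7.35e-05).

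Runs of 6 lower genes lay on chromosome 6, from Sobic.006G193900 to Sobic.006G194300, and on chromosome 9, from Sobic.009G159100 to Sobic.009G160000. In the first of these, Sobic.006G194100 had 105 and 102 FPKM in WT and 47.6 and 51.9 in wxe (-1.04, limma adjusted p = 1.31e-04). In that run 4 of the 6 genes were called higher in wxe at 6 DPA. The share was 40.2% among all genes called lower at 11 DPA and 11.6% among all genes tested at both ages. Runs of 5 lower genes started at Sobic.004G229100 and Sobic.006G241350, and 5 higher genes ran from Sobic.005G146966 to Sobic.005G147400. Neighbours with similar sequence may share reads, and how reads that align to several places were counted is not given in the sources used here.

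Some genes were listed at 0 in a whole genotype. In wxe 20 tested genes were at 0 in both libraries, 7 of them above 0 in both WT libraries, and 6 of these were called lower. The highest were Sobic.004G122100, at 7.38 and 10.4 FPKM in WT, and Sobic.004G303466, at 9.41 and 4.30. In WT 8 genes were at 0 in both libraries, 3 of them above 0 in both wxe libraries and all 3 called higher, such as Sobic.007G166701 at 3.20 and 1.98 FPKM in wxe. Of all genes tested 12.1% were called lower and 5.78% higher. A gene at 0 in a genotype, however, passed the FPKM filter only through the other genotype. The direction of these calls was thus fixed by the choice, and nothing is read from their counts. No fold is given for these genes, since an exact 0 has no known counting floor here.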

How the data were processed

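RNA of hand-dissected endosperm was sequenced as paired-end libraries, and the authors, whose processing notes also name FastQC and Trimmomatic, used STAR to align the reads to version 3 of the sorghum genome and computed the FPKM values deposited per gene with Cufflinks. Tool versions, annotation release, strand and the handling of multiply aligned reads are not given in the sources used here. The study tested with Cuffdiff, which needs reads and was not run.

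All 18349 genes whose mean exceeded 1 FPKM in any of the 8 groups were fitted on log2(FPKM + 1) with limma 3.58.1 in R 4.3.3, in 1 model of the 8 groups (8 residual degrees of freedom, variance trend). Contrasts were two-sided, with Benjamini-Hochberg adjustment over 15808 genes at 11 DPA, and the pipeline was tested on simulated data. The same thresholds gave the changes of WT with age. Groups came from the sample labels. FPKM libraries hold no counts, so no counting error is given.

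Named genes are those named by ID in the study's text, the called genes with the 10 largest fold changes (mean of 10 FPKM or more in 1 genotype) and the 5 largest FPKM differences per direction, and the 5 per direction differing most from other ages, the last 3 kinds each with a gap between genotypes wider than the replicate difference. The 10 most abundant genes were added after their values were seen. The members and lists were chosen with earlier results of these data known. Keyword lists of gene families were not run, since 0 gene IDs matched the reference table. Alternatives were a pseudocount of 0.1, no filter, a filter at 5 FPKM, 11 DPA alone, a replicate block, median-ratio and quantile scaling, no trend, the fold on mean FPKM and each library left out. Leaving the 6 DPA libraries out of the fit was added after seeing the data.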

Additional observations from a re-analysis of the deposited data

Results flagged for a closer look

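For 44 of the 68 named genes tested, the 11 DPA effect differed from the mean effect at 6, 16 and 21 DPA in limma's test of the difference (adjusted p below 0.05), 21 above it and 23 below it. Over all genes tested 33.6% did, but many of the 68 had been chosen for this difference or for a large 11 DPA effect, so their count is fixed in part by the choice and nothing is read from it. The values below are the 11 DPA effect minus that mean, on the log2(FPKM + 1) scale.

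Above the mean of the other ages lay Sobic.001G274025 by 2.92 (standard error 0.27), Sobic.005G150000 by 2.34, Sobic.006G202500 by 2.26, Sobic.008G070100 by 1.98, Sobic.006G007001 by 1.88, Sobic.005G152700 by 1.82 and Sobic.001G318500 by 1.79. Then came Sobic.003G330800 by 1.76, Sobic.003G300701 by 1.69, Sobic.004G271300 by 1.61, Sobic.003G276500 by 1.42, Sobic.005G213900 by 1.32 and Sobic.004G205100 by 0.79, and Sobic.004G354500 by 0.76. Of the genes named in the study's text, the jmjC domain gene Sobic.001G175000 lay 1.19 above, SbSSIIIa (Sobic.007G068200) 1.08, SbAGPLS1 (Sobic.003G230500) 0.80, SS3 (Sobic.001G378300) 0.64 and SbSBEIIb (Sobic.004G163700) 0.50. Smaller were the uridylyltransferase gene Sobic.002G291200 at 0.40 and SbAGA2 (Sobic.002G075900) at 0.36.

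Below it, Sobic.010G039150 differed by -5.71 (standard error 0.80), Sobic.007G029800 by -5.56, Sobic.008G030801 by -4.97, Sobic.007G075301 by -4.58, Sobic.010G179800 by -4.45, Sobic.001G202800 by -4.35 and Sobic.006G121700 by -4.24. Sobic.004G340200 followed at -3.87, Sobic.004G092700 at -3.84, Sobic.002G358300 at -3.15, Sobic.005G086400 at -2.99 and Sobic.001G488000 at -1.16. Both globulins were among them, globulin-1 (Sobic.001G144900) at -2.57 and globulin-2 (Sobic.001G059800) at -2.50, as were SbSWEET16 (Sobic.001G377600) at -1.996, the sucrose transporter Sobic.001G488700 at -1.11 and SbSWEET1 (Sobic.003G377700) at -1.01. The transcription factors were the MYB gene Sobic.003G267400 at -1.83, the ERF gene Sobic.009G170800 at -1.42, the ZF-HD gene Sobic.005G019800 at -1.06 and the NAC gene Sobic.009G086800 at -0.62. The 3-ketoacyl-CoA synthase 1 gene Sobic.001G482300 stood at -1.61 and Sobic.008G013000 at -0.56.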

How the results depend on the processing

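Calls at 11 DPA numbered 2834, and 2004 with a filter at 5 FPKM (10224 genes tested), 2621 with no filter, 3123 with a pseudocount of 0.1, 3456 with the fold taken on the ratio of mean FPKM (1253 higher and 2203 lower), 2951 with the replicate block, 2930 under quantile normalization and 2239 to 3160 with each library left out in turn, where the lone library of a genotype is assumed to vary like the other groups. The replicate numbers pair no samples by label, and the replicate differences of WT and wxe correlated at 0.234 with only 2 pairs. Under none of the alternatives was a called gene called in the opposite direction. With each library left out, the genes whose 11 DPA effect differed from that at another age numbered 1463 to 2602 for 16 DPA, 1333 to 2556 for 21 DPA and 3414 to 5008 for the mean of the other ages. The list medians ran from 0.25 to 0.39 for starch, -0.66 to -0.54 for transcription factors and -0.19 to 0.29 for sugar genes. The sugar median of -0.04 reversed with no filter (0.23), with a filter at 5 FPKM (0.24), without WT replicate 2 (0.29) and without wxe replicate 1 (0.06). The median of the genes with EMS mutations moved to -0.90 with a pseudocount of 0.1, -0.65 with the 5 FPKM filter and -0.69 under quantile normalization, which moved the transcription factors to -0.51. Quantile normalization reversed Sobic.002G211700 (0.22), Sobic.009G001600 (0.85), Sobic.005G189000 (0.15), Sobic.009G021400 (0.10) and Sobic.005G188800 (0.11). The cause of these shifts was not tested. Of the 47 called genes named, 36 kept the call under all alternatives, and 7 of 31 uncalled ones gained it with an unchanged sign under 1 or more. Sobic.009G001600, not among these 7, passed both thresholds with the opposite sign under quantile normalization. Without read counts, the depth behind each value is unknown.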
